A study of Cunninghamia lanceolata with 2 samples.

Results

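Circadian clock and light signalling genes were examined in roots of Chinese fir (Cunninghamia lanceolata), a conifer grown for timber. The set holds the 53 assembled genes that the deposited table places in the KEGG pathway for the plant circadian rhythm, without the 10 annotated as phytochrome B, out of 32731 genes in all. One RNA-seq library came from seedlings given low phosphorus (LP) at under 0.01 mM for 4 months, and 1 from control seedlings given 1 mM (CK) over the same time. All seedlings had first grown for 1 month in a diluted nutrient solution. The labels name neither a genotype nor the number of seedlings behind a library, and they give no hour of harvest and no light regime. The protocol text speaks of poly(A) selection and also of a poly(A)- fraction, so the RNA fraction is not certain.

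Plants keep time with a loop of repressors. In Arabidopsis, LATE ELONGATED HYPOCOTYL (LHY) is made around dawn and holds back evening genes, and the pseudo-response regulators (PRRs) follow in sequence through the day and repress LHY in turn. Phytochromes, which sense red and far-red light, and cryptochromes, which sense blue light, set the loop to the day, and its outputs include flowering and flavonoid synthesis. Roots have a clock as well, which in Arabidopsis takes cues from the shoot. Functions given below are those of the Arabidopsis namesakes. Product names come from the table, and no sequence was at hand to check them.

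Estimated reads came to 48502899 in LP and to 17848911 in CK. With 1 library per group no difference below has a replicate check, no test was possible, and "higher" and "lower" describe these 2 libraries only. Levels are in RPKM, reads scaled to gene length and library depth, so genes of different length can be set side by side. Folds compare the RPKM values or, for genes under 1 RPKM in either library, the depth-scaled reads. Each fold of a gene with reads in both libraries has a 95% interval computed from its reads by the exact Clopper-Pearson method. This interval covers counting error only. In bulk roots, fewer cells of a type and less RNA per cell cannot be told apart. The fixed root terms for the Casparian strip, SHORT-ROOT, SCARECROW and PHO1 matched 0 annotations. The 26 genes with a root hair term summed to 1457 RPKM in LP roots and 1422 RPKM in CK roots. Among them the actin gene comp16161_c0 alone had 793.94 RPKM in LP roots and 733.37 RPKM in CK roots. The genes comp5974_c0 and comp15172_c0 of the present set, described below, are also among the 26. Of the green shoot markers, the 4 Rubisco small chain genes summed to 37.9 RPKM in LP roots and 18.42 RPKM in CK roots, and the 72 genes with a photosystem term summed to 642.4 RPKM in LP roots and 1053 RPKM in CK roots. Much of either difference lies in single genes. The gene comp24767_c0, named PsbA, had 49.09 RPKM in LP roots and 433.66 RPKM in CK roots. Of the photosystem genes, 35 lay below a log2 ratio of 0 and 34 above. The 25 genes matched for light-harvesting chlorophyll a/b, PsbA again among them, summed to 241.6 RPKM in LP roots and 649.5 RPKM in CK roots. Of these, the 5 at least 2-fold lower in LP are named PsbA, PsbC or PsbD. The 2 at least 2-fold higher are named chlorophyll a/b binding proteins. Of the Rubisco genes, comp20871_c0 (13.31 RPKM in LP roots, 0.56 RPKM in CK roots) and comp5107_c0 (9.62 RPKM in LP roots, 0.21 RPKM in CK roots) were higher in LP and the other two stayed within 2-fold. The part of green tissue or RNA in any result below was not tested.

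The genes of the pathway did not share a direction. Chalcone synthase, the flavonoid enzyme at the output end, was higher in LP in all 5 of its genes. GIGANTEA, 1 of 3 cryptochrome 1 genes, 2 of 4 phytochrome A genes, single genes of PRR7, PRR9 and PIF3, 4 of 10 WNK kinases and 1 casein kinase 2 gene were at least 2-fold lower in LP. As deposited, the LHY genes, PRR1 and most of the casein kinase 2 genes were close to equal in the 2 libraries.

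In numbers, 52 of the 53 genes had a mean of at least 1 RPKM and were counted on the scale log2((LP RPKM + 1)/(CK RPKM + 1)), which understates the fold of low genes. Of these 52, 3 were at least 2-fold higher in LP (5.77%), where 8.68% of all 30843 genes that passed the same filter were. Another 12 were at least 2-fold lower in LP (23.1%), where 16.2% of all genes were. The other 37 lay within 2-fold. The median log2 ratio was -0.35 for the 52 genes and -0.16 for all genes, and 38 of the 52 lay below 0 (73.1%, with 59.7% of all genes). The median of all genes is a shift that depends on scaling. It was 0.05 with TMM scaling, under which 32 of the 52 genes lay below 0, 5 passed the 2-fold limit upward and 12 passed it downward. Over all genes, 2676 were higher and 4996 lower as deposited, and 3412 and 3948 with TMM scaling. Relative to the median of all genes, the median of the 52 was -0.19.

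**Figure D1:**
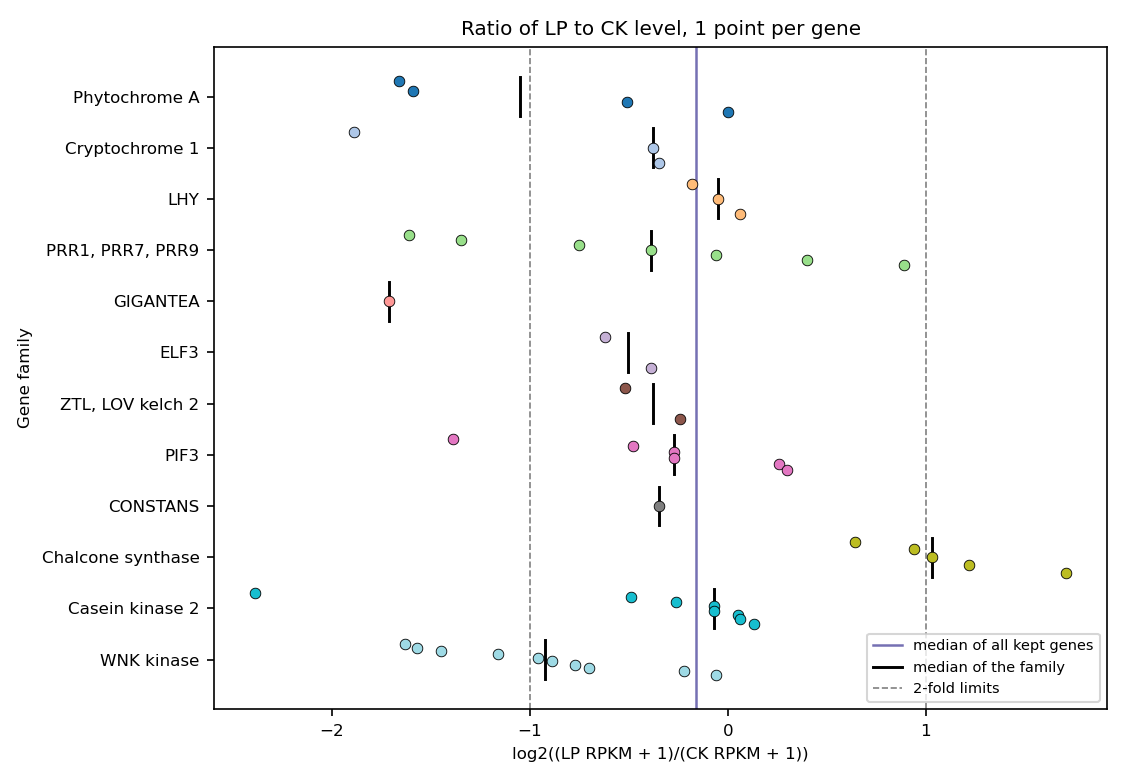
Log2 ratio of the LP level to the CK level (RPKM + 1, horizontal axis) for the 52 counted genes, 1 point per gene, in 12 families (vertical axis); points within a family are spread vertically only to part them. Chalcone synthase alone has points right of the upper 2-fold limit (dashed line), WNK kinases lie left of 0, and the PRR genes spread from -1.61 to 0.89.

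Gene length moves with these ratios throughout the 2 libraries. The median log2 ratio over all genes was below 0 at both ends of the length range. It was -0.36 at 200 to 300 bases, where 25.8% of genes were at least 2-fold lower in LP and 10.7% higher. At 300 to 400 bases it was -0.31, at 400 to 600 bases -0.22 and at 1000 to 1500 bases 0.06. It was -0.23 at 2000 to 3000 bases and -0.49 at 3000 to 4000 bases. From 4000 bases upward it was -0.72, and 19.9% of genes were at least 2-fold lower in LP and 0.327% higher. Genes of the set tend to be long, with a median of 1701 bases for the 53 genes and 610 bases for the whole table. Relative to genes of equal length, the median of the 52 genes was -0.04, 33 lay below 0, 5 were at least 2-fold higher and 10 lower, where 11.0% and 11.7% of all genes were. Short assembled genes with few reads scatter more. Among the 17 genes under 1000 bases, 6 were lower (35.3%, with 21.8% of all short genes), and 2 were higher (11.8%, with 11.2%). Among the 35 counted genes of at least 1000 bases 6 were lower (17.1%, with 7.39% of all such genes) and 1 was higher (2.86%, with 4.72%). The part of length and read number in single results was not tested.

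**Figure D2:**
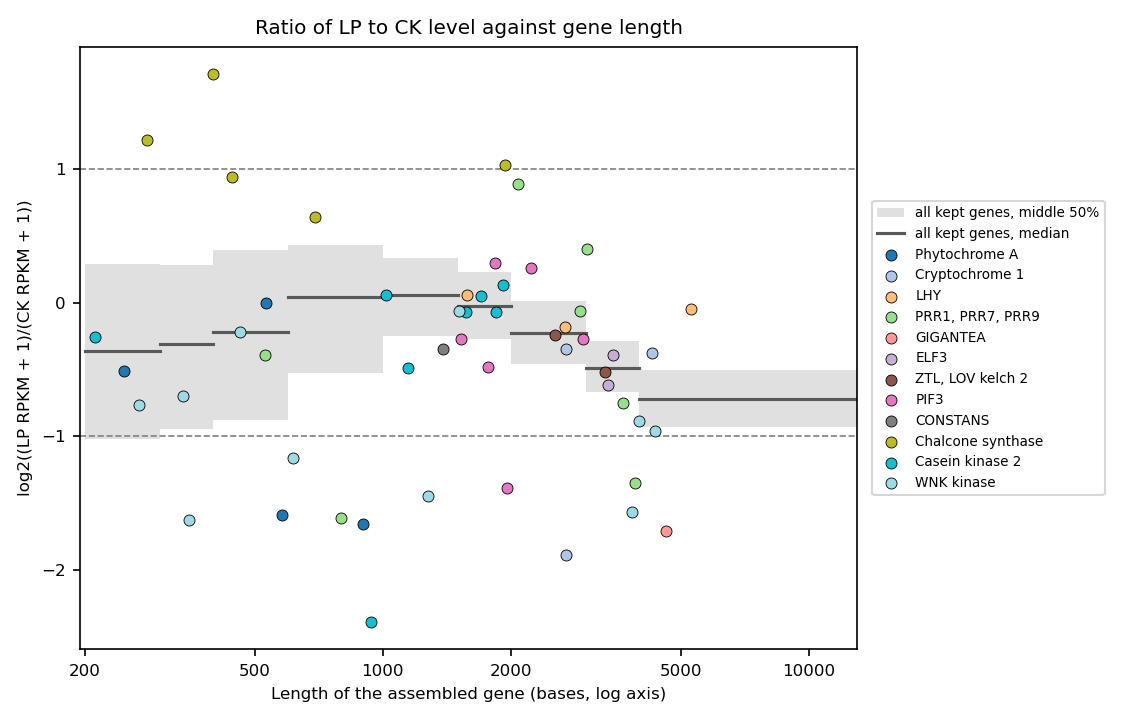
Log2 ratio of the LP level to the CK level (RPKM + 1, vertical axis) against the length of the assembled gene in bases (log axis), with 1 point per counted gene coloured by family, and the median and middle 50% of all genes in 9 length classes (lines and grey bands). The medians of all genes go down to -0.72 beyond 4000 bases, and 18 counted genes lie below the bands of their lengths, 23 inside and 11 above; of those of at least 1000 bases, 12 lie below, 16 inside and 7 above.

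Of the 7 photoreceptor genes, 3 were at least 2-fold lower in LP (42.9%, with 16.2% of all genes) and 0 higher, and the median log2 ratio was -0.51 (-0.15 relative to genes of equal length). Of these 3, 2 had under 100 reads in a library, and 23.7% of all genes with so few reads were lower. Cryptochrome 1, a blue light receptor, was represented by 3 long genes. The gene comp22189_c0 had 5.57 RPKM in LP roots against 23.3 RPKM in CK roots, 4.18-fold lower (3.81 to 4.59), on 752 and 1151 reads. Its log2 ratio of -1.89 compares with -0.23 for genes of its length. The other two differed far less between the libraries. Gene comp29729_c0 had 24.6 RPKM in LP roots against 31.67 RPKM in CK roots (1.29-fold lower, 1.21 to 1.37), and comp22312_c0 had 16.92 RPKM in LP roots against 22.39 RPKM in CK roots (1.32-fold lower, 1.24 to 1.42). The ratio of comp22312_c0, a gene of 4288 bases, was -0.38 on the log2 scale and lies above the same-length median of -0.72. The share of comp22189_c0 in the summed cryptochrome 1 level was thus 11.8% in LP and 30.1% in CK.

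Phytochrome A, the receptor for far-red light, appeared as 4 short genes of 247 to 897 bases, shorter than a whole phytochrome message, so they may be pieces of fewer genes. The most abundant, comp6301_c0, had 19.41 RPKM in LP roots and 19.35 RPKM in CK roots, on 460 and 168 reads (fold 1.0, 0.839 to 1.2). The genes comp62169_c0 and comp46373_c0 stood apart from it. Gene comp62169_c0 had 1.25 RPKM in LP roots against 6.1 RPKM in CK roots (4.88-fold lower, 3.45 to 6.96), on 53 and 95 reads. Gene comp46373_c0 had 2.83 RPKM in LP roots against 10.53 RPKM in CK roots (3.72-fold lower, 2.73 to 5.09), on 74 and 101 reads. The shortest, comp626_c0, had 3.13 RPKM in LP roots against 4.88 RPKM in CK roots on 28 and 16 reads, and its interval includes no difference. With a pseudocount of 5 RPKM neither of the lower genes passed the 2-fold limit. The 10 phytochrome B genes of the same pathway, a neighbouring set, had 5 at least 2-fold lower in LP (50.0%, with 16.2% of all genes). None was higher, and the median was -0.99. Of these 5, comp22076_c0 had 1493 and 1270 reads. The others had under 100 reads in a library, where 23.7% of all genes were lower. The difference between the phytochrome sets was not tested.

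Among 16 clock proteins, 15 were counted, of which 3 were at least 2-fold lower in LP (20.0%, with 16.2% of all genes) and 0 higher, with a median of -0.39 that was -0.01 relative to genes of equal length. LHY is the dawn repressor with a MYB domain. Its main gene, comp17985_c0, had 45.88 RPKM in LP roots and 44.08 RPKM in CK roots (fold 1.04, 0.975 to 1.11, on 3525 and 1241 reads) and made up 87.9% of the summed LHY level in LP and 86.0% in CK. The less abundant LHY genes were comp24106_c0, with 4.25 RPKM in LP roots and 4.94 RPKM in CK roots, and comp24980_c0, with 2.09 RPKM in LP roots and 2.21 RPKM in CK roots. Both of these carry a GO term with the word circadian, and the more abundant comp17985_c0 does not. Counting intervals of the fold of all 3 include 1 as deposited, and under TMM scaling all 3 ratios lay above 0. The gene comp24980_c0 has 5289 bases, and its log2 ratio of -0.05 was 0.67 relative to that length class.

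The PRRs, repressors of LHY that act one after another, did not move as a family. Their 7 genes summed to 104.4 RPKM in LP roots and 154.8 RPKM in CK roots. PRR1, also known as TOC1 and the evening member, had a single gene, comp24930_c0, at 20.11 RPKM in LP roots and 21.04 RPKM in CK roots (1.05-fold lower, 0.975 to 1.12). PRR7 had the most abundant gene of the family, comp25436_c0, at 42.82 RPKM in LP roots against 72.94 RPKM in CK roots (1.7-fold lower, 1.64 to 1.77). It has 3658 bases, and its log2 ratio of -0.75 compares with -0.49 for genes of that length.

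A second PRR7 gene, comp26858_c0, had 12.01 RPKM in LP roots against 32.06 RPKM in CK roots (2.67-fold lower, 2.5 to 2.85), on 2004 and 1578 reads. Its log2 ratio of -1.35 was -0.86 relative to genes of its length, which no longer passes the 2-fold limit. The third, comp4460_c0, went the other way, with 15.68 RPKM in LP roots against 7.97 RPKM in CK roots (1.97-fold higher, 1.74 to 2.23, on 1618 and 301 reads). It lay just within the limit as deposited (log2 ratio 0.89) and past it relative to the median of all genes (1.05) or of its length (1.12). The last and shortest, comp104613_c0, had 2.77 RPKM in LP roots and 3.94 RPKM in CK roots on 65 and 34 reads, with an interval that includes no difference.

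PRR9, a morning member, also divided. The short gene comp11124_c0 had 2.94 RPKM in LP roots against 10.99 RPKM in CK roots (3.74-fold lower, 2.89 to 4.81), on 110 and 150 reads. Gene comp22268_c0, of 3014 bases, had 8.1 RPKM in LP roots against 5.91 RPKM in CK roots (1.37-fold higher, 1.21 to 1.56), on 918 and 326 reads. Its log2 ratio was 0.4 as deposited and 0.89 relative to its length class. PRR7 and PRR9 thus each held genes on both sides, and the order of the PRR genes by level differed between the libraries. In LP the third most abundant was comp4460_c0 of PRR7, whereas in CK it was comp24930_c0 of PRR1, after both PRR7 genes named first.

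GIGANTEA, a large evening protein that stabilises the F-box protein ZTL and promotes flowering, had 1 gene. This gene, comp23724_c0, had 5.26 RPKM in LP roots against 19.51 RPKM in CK roots (3.71-fold lower, 3.44 to 3.99), on 1234 and 1678 reads. With 4627 bases it falls in the length class with the lowest ratios, and its log2 ratio of -1.71 was -0.99 relative to that class, at the 2-fold limit but not past it. Its level was 0.262 times that of PRR1 in LP and 0.927 times that of PRR1 in CK.

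The remaining clock genes stayed within 2-fold. EARLY FLOWERING 3 (ELF3), the scaffold of the evening complex, had 2 genes. The gene comp5962_c0 was at 9.89 RPKM in LP roots against 15.71 RPKM in CK roots (1.59-fold lower, 1.47 to 1.72), and comp15183_c0 at 6.65 RPKM in LP roots against 8.99 RPKM in CK roots (1.35-fold lower, 1.22 to 1.49). ZTL, an F-box protein that senses blue light and targets PRR1 for breakdown, had comp22919_c0 at 18.84 RPKM in LP roots against 27.54 RPKM in CK roots (1.46-fold lower, 1.38 to 1.55) and comp21007_c0 at 5.35 RPKM in LP roots against 6.51 RPKM in CK roots (1.22-fold lower, 1.06 to 1.4). All 4 genes have 2540 to 3476 bases, and relative to genes of equal length the ELF3 median was -0.01 and the ZTL median -0.02. The gene named LOV kelch protein 2, a relative of ZTL, is the 1 member left uncounted. This gene, comp64201_c0, had 12 reads in LP (0.24 RPKM) and 0 reads in CK, where a floor of 3 reads stands for 0.164 RPKM. Set against that floor it was 1.41-fold higher in LP, a value meant as a lower bound that leaves out the counting error of the LP reads.

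Phytochrome-interacting factor 3 (PIF3) names a group of bHLH transcription factors that bind light-activated phytochrome and are then broken down. Of its 6 genes 1 was at least 2-fold lower in LP (16.7%, with 16.2% of all genes), 0 were higher, and the median was -0.27. The lower gene, comp19937_c0, had 7.45 RPKM in LP roots against 21.07 RPKM in CK roots (2.83-fold lower, 2.55 to 3.14), on 706 and 728 reads. Genes of its length had a median log2 ratio of -0.03, against its -1.39. The 2 most abundant genes were comp15172_c0, at 32.51 RPKM in LP roots against 39.43 RPKM in CK roots (1.21-fold lower, 1.13 to 1.3), and comp5974_c0, at 31.41 RPKM in LP roots against 44.19 RPKM in CK roots (1.41-fold lower, 1.32 to 1.5). Both also carry a root hair term, and they made up 34.2% and 33.1% of the summed PIF3 level in LP. Whether they bind phytochrome was not tested. Gene comp20918_c0 had 3.5 RPKM in LP roots and 4.41 RPKM in CK roots (1.26-fold lower, 1.08 to 1.47). A higher level in LP was seen in comp17173_c0, with 12.51 RPKM against 9.96 RPKM in CK roots (1.26-fold, 1.11 to 1.42), and in comp15369_c0, with 7.58 RPKM against 6.15 RPKM in CK roots (1.23-fold, 1.07 to 1.43).

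**Figure D3:**
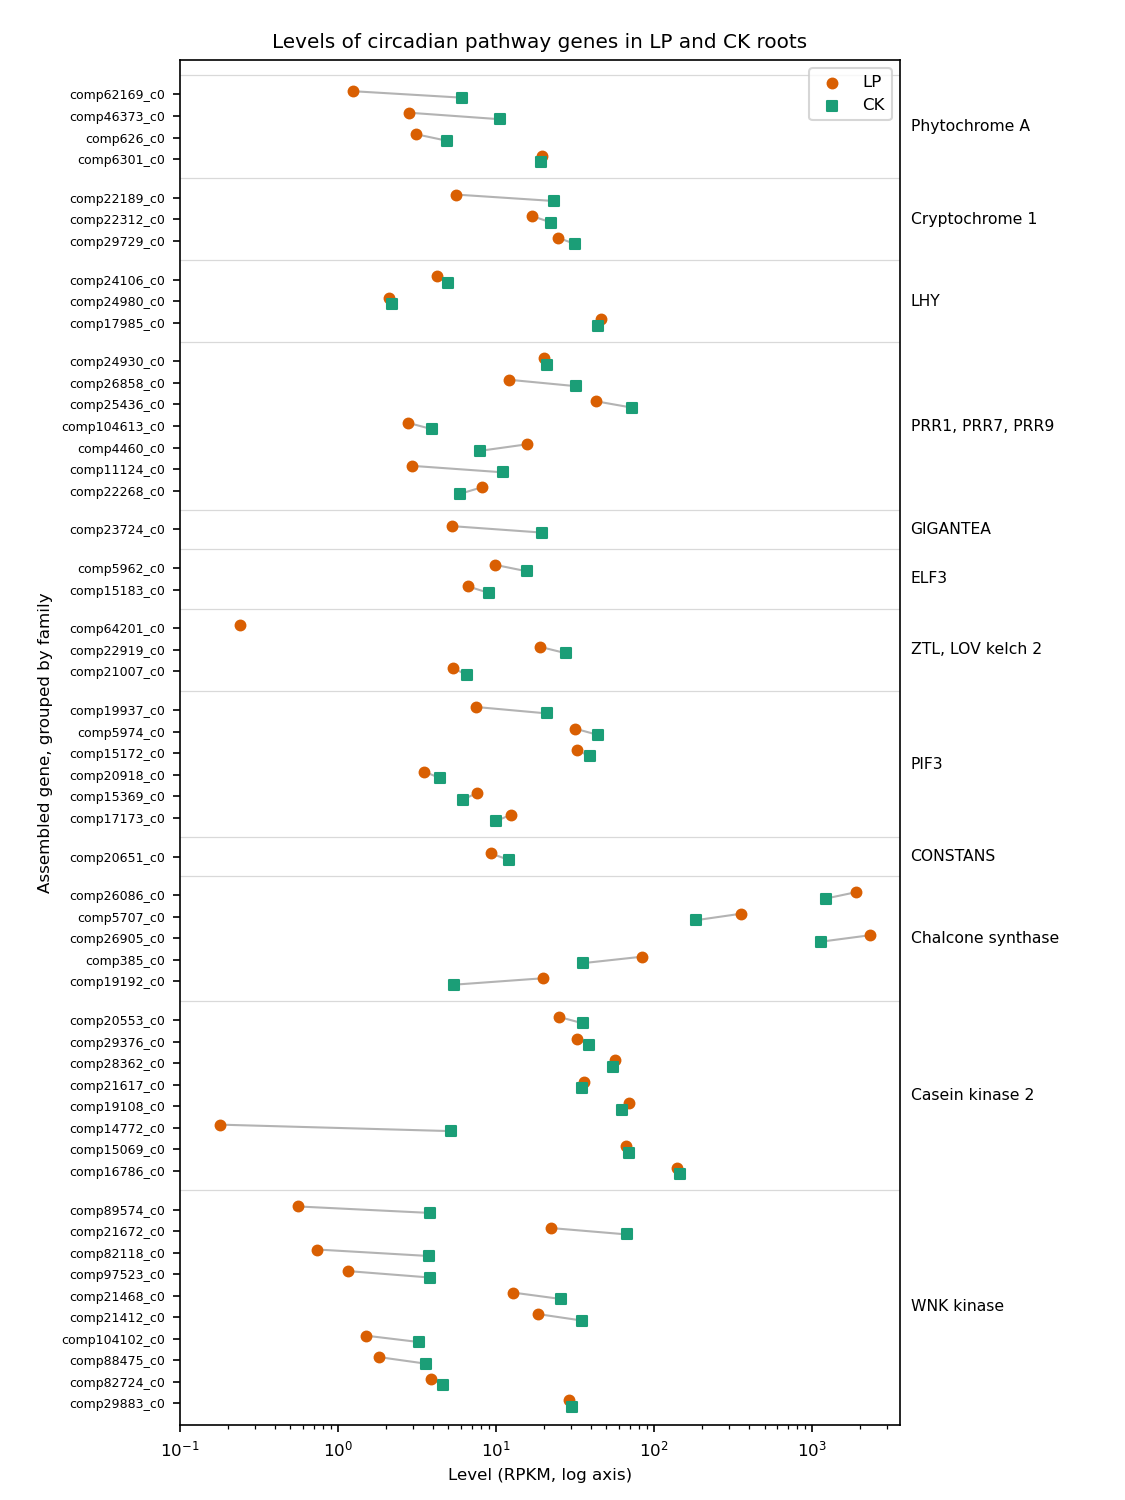
Level of each of the 53 genes in the LP library (circles) and the CK library (squares), in RPKM on a log axis, grouped by family, with a line joining the values of a gene. Chalcone synthase genes reach 2333.4 RPKM in LP roots, and LHY and most casein kinase 2 pairs nearly coincide; the CK value of comp64201_c0 is 0 and has no square.

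Chalcone synthase, which makes the first intermediate of the flavonoids and is switched on by light in shoots, is the output of the pathway most strongly represented in these roots. Its 5 genes summed to 4695 RPKM in LP roots and 2587 RPKM in CK roots, and made up 84.0% of the summed level of the 53 genes in LP and 68.9% in CK. All 5 were higher in LP under each scaling tried. As deposited 3 of them passed the 2-fold limit, and 4 did with TMM or median-of-ratios scaling, against the median of all genes and against genes of equal length. The most abundant, comp26905_c0, an assembly of 17 transcripts, had 2333.4 RPKM in LP roots against 1142.56 RPKM in CK roots (2.04-fold higher, 2.01 to 2.07). Gene comp26086_c0 had 1900.81 RPKM in LP roots against 1218.16 RPKM in CK roots (1.56-fold higher, 1.53 to 1.59) and stayed within 2-fold.

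The other 3 chalcone synthase genes have 279 to 442 bases. The gene comp5707_c0 had 357.24 RPKM in LP roots against 185.56 RPKM in CK roots (1.93-fold higher, 1.81 to 2.04), just within the limit. A larger ratio was found for comp385_c0, at 83.65 RPKM in LP roots against 35.32 RPKM in CK roots (2.37-fold higher, 1.97 to 2.85). The highest ratio of the whole set belonged to comp19192_c0, at 19.88 RPKM in LP roots against 5.4 RPKM in CK roots (3.68-fold higher, 2.6 to 5.5), on 335 and 33 reads. Of the 5 genes, 3 share the same database match, so they may be pieces or near-identical copies that share reads, and the summed ratio of 1.81 depends less on how reads were divided among them. The same genes belong to flavonoid biosynthesis.

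The flowering regulator CONSTANS, a zinc finger protein that reads day length, had 1 gene, comp20651_c0. It was at 9.24 RPKM in LP roots and 12.02 RPKM in CK roots (1.3-fold lower, 1.13 to 1.5), on 625 and 298 reads. The summed level of all 53 genes was 1.49 times as high in LP as in CK. Without chalcone synthase the other 48 genes summed to 897.5 RPKM in LP roots and 1169 RPKM in CK roots, a ratio of 0.77, and 0 of the 47 counted were at least 2-fold higher in LP.

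Casein kinase 2, a kinase of catalytic alpha and regulatory beta subunits that phosphorylates clock proteins of the LHY type among many substrates, had 8 genes. Apart from 1 gene with few reads, all stayed within 2-fold. The next lowest ratio was that of comp20553_c0, 1.42-fold lower in LP (1.3 to 1.55), with a log2 ratio of -0.55 relative to genes of equal length. The 5 alpha subunit genes summed to 219.4 RPKM in LP roots and 226.9 RPKM in CK roots, with log2 ratios from -0.49 (comp20553_c0, 25.14 RPKM in LP roots and 35.67 RPKM in CK roots) to 0.13 (comp19108_c0, 69.21 RPKM in LP roots and 63.03 RPKM in CK roots). Between these lay comp28362_c0 at 56.53 RPKM in LP roots and 54.57 RPKM in CK roots, comp21617_c0 at 36.18 RPKM in LP roots and 34.76 RPKM in CK roots, and comp29376_c0 at 32.36 RPKM in LP roots and 38.91 RPKM in CK roots. Of the beta subunits, comp16786_c0 had 139.18 RPKM in LP roots and 145.91 RPKM in CK roots, and comp15069_c0 had 66.08 RPKM in LP roots and 69.33 RPKM in CK roots.

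The exception, the beta subunit gene comp14772_c0, had 0.18 RPKM in LP roots against 5.2 RPKM in CK roots, on 8 and 85 reads, 28.9-fold lower (14.0 to 69.0). This is the lowest ratio of the 52 genes. It is also the 1 gene of the set for which the table lists no database match, and with a pseudocount of 5 RPKM it did not pass the 2-fold limit. The median of the 8 genes was -0.07 as deposited and 0.17 with TMM scaling.

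WNK kinases, serine/threonine kinases of which Arabidopsis WNK1 phosphorylates PRR3, were the largest family, with 10 genes. Of these 4 were at least 2-fold lower in LP (40.0%, with 16.2% of all genes) and 0 higher, with a median log2 ratio of -0.92 (-0.41 relative to genes of equal length). Of the 4, 3 had under 100 reads in a library, where 23.7% of all genes were lower. All 10 lay below 0, and 9 did with TMM scaling. The gene comp21672_c0 had the most reads, 4306 in LP and 4821 in CK, and 22.12 RPKM in LP roots against 67.6 RPKM in CK roots (3.06-fold lower, 2.93 to 3.18). It has 3844 bases, and its log2 ratio of -1.57 was -1.08 relative to genes of that length.

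Further long WNK genes lay near the 2-fold limit. Gene comp21412_c0, of 3984 bases, had 18.51 RPKM in LP roots against 35.05 RPKM in CK roots (1.89-fold lower, 1.8 to 1.99), and comp21468_c0, of 4352 bases, had 12.83 RPKM in LP roots against 25.89 RPKM in CK roots (2.02-fold lower, 1.9 to 2.15). On the log2 scale with the pseudocount these are -0.89 and -0.96, just within the limit, and -0.4 and -0.24 relative to their lengths. The gene comp29883_c0 had 28.77 RPKM in LP roots and 30.1 RPKM in CK roots (1.05-fold lower, 0.964 to 1.13).

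The remaining 6 WNK genes lay at 3.27 to 4.64 RPKM in CK roots. Of these, comp89574_c0 had 0.56 RPKM in LP roots against 3.82 RPKM in CK roots, on 8 and 20 reads (6.79-fold lower, 2.87 to 17.8). Gene comp82118_c0 had 0.74 RPKM in LP roots against 3.74 RPKM in CK roots, on 46 and 85 reads (5.02-fold lower, 3.47 to 7.35). For comp97523_c0 the values were 1.15 RPKM in LP roots and 3.82 RPKM in CK roots, on 32 and 39 reads (3.32-fold lower, 2.03 to 5.48). None of these 3 passed the 2-fold limit with a pseudocount of 5 RPKM. Lesser ratios were seen for comp88475_c0 (1.83 RPKM in LP roots, 3.59 RPKM in CK roots), comp104102_c0 (1.5 RPKM in LP roots, 3.27 RPKM in CK roots) and comp82724_c0 (3.85 RPKM in LP roots, 4.64 RPKM in CK roots). Of the 10 WNK genes, 6 share 1 database match, so several may be pieces of the same gene.

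Few other annotations are common to the set. A GO term with the word circadian was carried by 17 of the 53 genes, among them ELF3, ZTL, cryptochrome and WNK genes. Of these 17, 3 were at least 2-fold lower in LP (17.6%, with 16.2% of all genes), 0 were higher, and the median was -0.39. Of the 53, 8 genes (casein kinase 2) are also placed in the Wnt and cell junction pathways of animals, and 40 belong to the circadian pathway alone. In all, 35 of the 53 genes rest on 1 assembled transcript.

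In the authors' deposited table, 12 of the 53 genes carry a positive call in their own comparison of the 2 libraries, where 10.4% of all genes do. The 9 called lower in LP (5.17% of all genes) are GIGANTEA, 1 cryptochrome 1, 1 phytochrome A, 1 PRR7, 1 PRR9, 1 PIF3, 1 casein kinase 2 beta and 2 WNK genes. Those called higher are 3 chalcone synthase genes (5.27% of all genes). In the authors' deposited table the FDR was 0.04 for GIGANTEA, 0.01 for the cryptochrome 1 gene comp22189_c0, 0.02 for the PRR7 gene comp26858_c0 and 0.08 for the PIF3 gene comp19937_c0. It was 0.19 for comp21468_c0 (WNK), 0.21 for comp11124_c0 (PRR9), 0.22 for comp14772_c0 (casein kinase 2) and 0.23 for comp46373_c0 (phytochrome A) in the authors' deposited table. The called chalcone synthase gene comp19192_c0 has an FDR of 0.09 in the authors' deposited table, where calls over all genes reach 0.35. Of the 12 genes called in the authors' deposited table, 6 have an FDR of 0.05 or less. Such an FDR compares these 2 libraries and not the phosphorus supplies.

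Light and clock genes outside the pathway passed the 2-fold limits no more often than all genes did. Against all genes with at least 100 reads in each library they passed them more often, but they were not held to that read limit themselves. This second comparison is thus between sets filtered differently. A search of annotation text for circadian, photoperiod, photoreceptor and light response terms matched 159 further genes, of which 155 were counted. In LP, 11 exceeded the 2-fold limit upward (7.1%) and 14 downward (9.03%), with a median log2 ratio of -0.11. Over all genes the shares were 8.68% and 16.2%. Over all genes with at least 100 reads in each library they were 3.95% and 7.1%. The part of read number and length in these shares was not tested. RFWD2, the ligase known in plants as COP1, which degrades light signalling factors in the dark, had 10 genes with 0 higher and 0 lower and a median of -0.51. Its most abundant gene, comp30596_c0, had 29.06 RPKM in LP roots against 23.36 RPKM in CK roots (1.24-fold higher, 1.14 to 1.36). The COP9 signalosome, which regulates such ligases, had 11 genes with 0 higher, 1 lower and a median of -0.05. The group of DDB1, DET1 and cullin 4, which assemble ligases that work with COP1, had 5 genes with 0 higher, 1 lower and a median of -0.68. The lower one, comp2240_c0, had 0.12 RPKM in LP roots against 2.78 RPKM in CK roots, on 3 and 26 reads (23.6-fold lower, 7.22 to 122). Another cryptochrome gene, comp10765_c0, had 2.97 RPKM in LP roots against 5.51 RPKM in CK roots (1.86-fold lower, 1.54 to 2.23). The RFWD2, COP9, DDB1 and cryptochrome groups were picked after the annotations had been seen.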

How the data were processed

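The authors deposited 1 table with estimated counts and RPKM of each assembled gene in both libraries, their log2 fold change, and a p-value and FDR rounded to 2 decimals, per the file headers. For the assembler, aligner, counter and test the sources used here name nothing, and positions in a genome were not used here. Members were found by the pathway code in the annotation of the table. Ratios were computed as log2((LP + 1)/(CK + 1)) on RPKM for genes that averaged 1 RPKM or more, with Python 3.11.15, pandas 2.3.3 and scipy 1.17.1. The TMM factors of the estimated counts, rounded to whole reads, came from edgeR 4.0.16 (0.92 for LP, 1.09 for CK), used for scaling only. Length classes and the limit of 1000 bases were chosen after the data were seen. Members, families and lists were chosen with earlier results of these data known. Named genes are all members of role groups with up to 6 counted genes, and in larger groups the 3 highest, the 3 lowest and the most abundant; the other members were named after their values had been seen, so that every gene is accounted for. The calculation was tested on simulated data.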

Additional observations from a re-analysis of the deposited data

How the results depend on the processing

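No paired analysis was possible because each group has 1 library, and no replicate could be left out. Against 3 genes at least 2-fold higher, 12 lower and a ratio of summed levels of 1.49, the alternatives gave these values. The higher count was 5 with TMM scaling (11.1% of all genes) and with median-of-ratios scaling (10.8% of all genes). It was also 5 against the median of all genes (10.4% of all genes) and against genes of equal length (11.0%). At a limit of 1.5-fold it was 6, and among genes of at least 1000 bases 1 (4.72% of all such genes). It was 0 at 4-fold or without chalcone synthase. The lower count was 18 at 1.5-fold and 17 with phytochrome B. With a pseudocount of 0.1 RPKM it was 14 (21.9% of all genes), and with a pseudocount of 5 RPKM 6 (3.27% of all genes). It was 7 at a mean of at least 5 RPKM, 6 among genes of at least 1000 bases (7.39% of all such genes) and 1 at 4-fold. The ratio of summed levels was 1.76 with TMM scaling, 1.73 with median-of-ratios scaling, 1.5 at a mean of at least 5 RPKM, 1.45 with phytochrome B, 1.44 among genes of at least 1000 bases and 0.77 without chalcone synthase. The median of -0.35 was -0.04 against genes of equal length and lay from -0.40 to -0.12 otherwise. No gene past the 2-fold limit changed sign under the other pseudocounts, scalings or the length allowance. Of the 15 calls, TMM scaling kept 15 and the length allowance kept 13, without GIGANTEA and the PRR7 gene comp26858_c0; a pseudocount of 5 RPKM kept 9. The genes of at least 1000 bases and the length allowance were added after the data were seen. Where an alternative removes genes or moves the limit, fewer or more calls follow from its construction; the cause of the other shifts was not tested. Depth limits the 12 counted genes with under 100 reads in a library, of which 6 were lower (50.0%) and 1 higher (8.33%), where 23.7% and 12.6% of all such genes were.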
